A study of Rattus with 9 samples.

Results

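Hyperlipidemia is an excess of lipid in the blood, and the liver is the organ that makes, takes up and disposes of most of that lipid. The comparison described here is that of livers labelled as model with livers labelled as normal control, in a study of pomegranate as a treatment for hyperlipidemia in Sprague-Dawley rats, an outbred laboratory strain. It uses 6 of the 9 sequenced libraries, 3 labelled model and 3 labelled normal control, all sampled after 8 weeks of administration. The other 3 libraries, labelled pomegranate-high, enter the fit only to help estimate the spread between libraries. Of 20236 genes in the deposited table, the 11078 with at least 1 FPKM (fragments per kilobase of transcript, scaled to the total of mapped fragments) in at least 3 of the 9 libraries were compared. The labels do not say how the model was made, what the control animals were given, the age or sex of the rats, or whether the libraries stand for different rats, so p-values measure only the spread between these libraries.

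Liver cells divide the work of lipid balance. Hepatocytes make cholesterol through the mevalonate pathway, whose enzymes are switched on together by the sterol-sensing transcription factor SREBP-2, and remove it by turning it into bile acids, a route whose first and rate-limiting step is carried out by Cyp7a1. Between hepatocytes and blood lie sinusoidal endothelial cells, which are fenestrated and scavenge particles from plasma, and Kupffer cells, the resident macrophages. Many liver genes also follow the daily clock, in which Arntl and its partner drive the Per, Cry and Nr1d genes and outputs such as Dbp.

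The 3 model libraries held 13678658, 16364483 and 17064905 mapped reads and the 3 control libraries 16166083, 16617769 and 17966670, as implied by the scale of the deposited values. At these depths a count of 3 reads on a transcript of 1 kilobase corresponds to 0.167 to 0.219 FPKM over all 9 libraries. Reads from the mitochondrial genome made up 14.5%, 6.4% and 4.99% of the model libraries and 6.38%, 4.18% and 4.17% of the control libraries, and albumin, the main plasma protein made by hepatocytes, took 10.05%, 6.65% and 7.89% of the model libraries and 8.65%, 9.43% and 8.13% of the control libraries. Model replicate 1 stood apart among these 6 libraries: 1488 of the 11078 genes lay more than 1 log2 unit from the control mean in that library, against 242 and 288 in model replicates 2 and 3. In the control libraries, which contribute to that mean themselves, the number was 118, 105 and 125. In the 3 pomegranate-high libraries, which enter the estimate of the spread, it was 1386, 1420 and 291. Their mitochondrial shares were 9.62%, 11.4% and 4.22%, so a wide deviation was not confined to model replicate 1. The label of liver fitted all 6 libraries, in which 13 of 13 hepatocyte markers were detected at a summed level of 73239 to 84627 FPKM in the model and 77569 to 84755 FPKM in the control libraries.

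Only 1 gene of 11078 (0.00903%) passed the adjusted threshold of 0.05 in limma, a moderated linear model fitted on log2(FPKM + 1) across all genes with Benjamini-Hochberg adjustment. It was lower in the model livers, and none was higher (0.0%). At an unadjusted p under 0.05 there were 330 genes (2.98%), of which 133 (1.2%) were higher and 197 (1.78%) lower in the model livers. The next smallest adjusted p was 0.172, and 8 genes had one under 0.5. A difference is given throughout as model minus control on the log2(FPKM + 1) scale, which understates the change of genes with low values.

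The bulk of genes differed little between the groups. The median difference over all genes was -0.03, the middle 98% of genes lay between -0.93 and 0.81, and 45.9% of genes had a difference above 0. A difference beyond 1 in size was seen for 137 genes (1.24%), with 61 above 1 (0.551%) and 76 below -1 (0.686%). The 3 model values lay entirely outside the range of the 3 control values for 974 genes (8.79%), above it for 440 (3.97%) and below it for 534 (4.82%). The typical spread was wider among the model livers, with a median standard deviation of 0.33 log2 units per gene, than among the control livers, where it was 0.23. Without model replicate 1 the balance of directions turned round: all 11078 genes then had a median difference of 0.04, and 95 genes lay above 1 against 59 below -1.

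**Figure D1:**
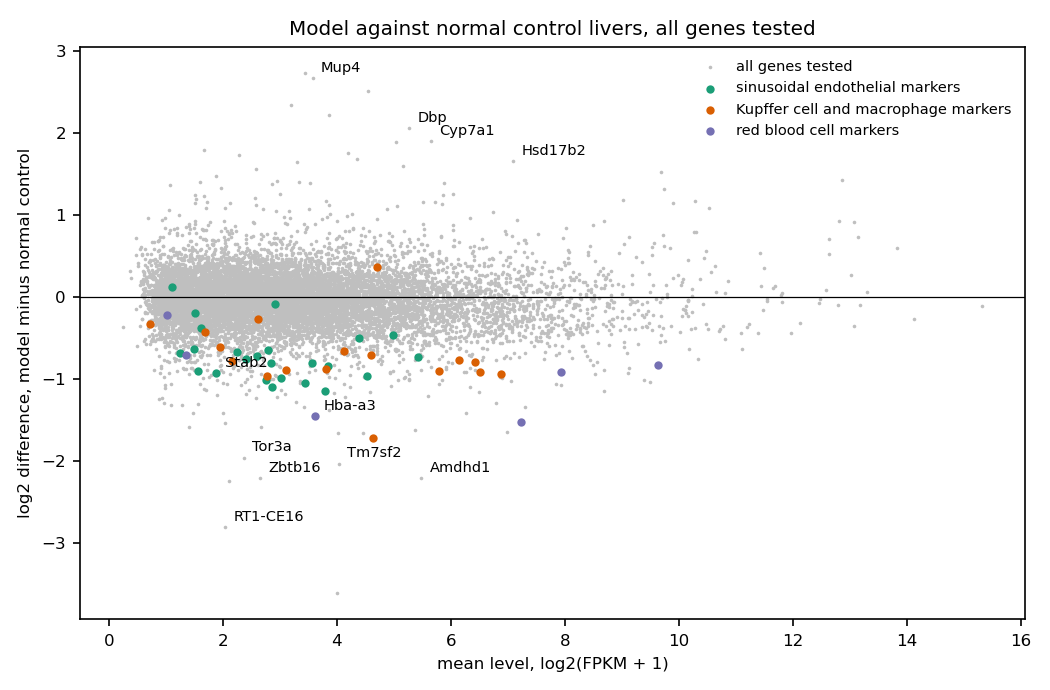
Difference between the model and normal control livers (y axis, log2(FPKM + 1), model minus control) against mean level (x axis, log2(FPKM + 1)) for the 11078 genes, with each gene a grey point and markers of 3 cell types coloured. The cloud centres near 0, with RT1-CE16 and Amdhd1 low, Mup4 and Dbp high, and 23 of 24 sinusoidal endothelial markers below the line.

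RT1-CE16 (ENSRNOG00000059770) was the gene that passed. It lies on the minus strand of chromosome 20 at 3791629 to 3796275 in Rnor_6.0 and belongs to class I of the rat major histocompatibility complex (MHC), whose products present peptides to cytotoxic T cells. It had 0 reads in each of the 3 model libraries, against 3.99, 6.33 and 8.29 FPKM, or 65, 106 and 150 reads, in the 3 control libraries. The groups did not overlap, and set against a floor of 3 reads per library the gene was at least 32.4-fold lower in the model livers. Its difference was -2.80 ± 0.30 (standard error), with an adjusted p of 0.0332 in limma. The adjusted p ran from 0.0013 to 0.365 over 19 alternative settings, and passed in 7 of them. With 1 of the 9 libraries left out in turn it ran from 0.0123 to 0.272, and it passed only without control replicate 1 or without pomegranate-high replicate 1.

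The rat class I genes are a family of near-identical copies that differ between haplotypes, and the counting could have divided reads among them, so the values of single members are uncertain. A second row with the symbol RT1-CE16 (ENSRNOG00000047706) stood at 0.134, 0 and 0 FPKM in the model libraries and 0, 37.9 and 52 FPKM in the control libraries. That row was near 0 in all model livers and in control replicate 1, and high in the other control livers, so the groups overlapped. It lies on the same strand of chromosome 20 at 3791407 to 3794027, a span partly shared with the row that passed. Both rows are therefore not separate observations. How reads in the shared stretch were counted is not stated, which also limits the fold given for the row that passed. The class I gene RT1-A1 had 0.268, 1.03 and 1.14 FPKM in the model and 1.39, 3.31 and 2.78 FPKM in the control livers, with no overlap. RT1-N2, another class I gene, was separated the other way, at 74.9, 67.8 and 65.4 FPKM in the model against 48.7, 36.6 and 39.98 FPKM in the control livers.

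Of 31 tested genes of MHC and antigen processing, 20 were lower and 11 higher. In that list 3 (9.68%) were separated as lower and 1 (3.23%) as higher, beside 4.82% and 3.97% of all genes. The 3 separated as lower were RT1-CE16, RT1-A1 and a pseudogene whose span lies within that of RT1-A1 on the same strand. RT1-A1 and that pseudogene may therefore share reads and are not clearly separate observations. The median difference was -0.27, or 0.04 without model replicate 1. Whether the animals of the 2 groups carried the same MHC haplotype is not stated in the labels and was not tested.

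Among genes whose groups did not overlap, those with the smallest p were taken in each direction. No gene named from here on passed the adjusted threshold, so the values are descriptions of these 6 libraries. Among the 30 genes so chosen, 3 were small RNA genes of 79 to 105 bases, which a library of poly(A) RNA measures poorly, and they are not described. After RT1-CE16 the smallest p among genes lower in the model livers belonged to Amdhd1 (ENSRNOG00000005266, chromosome 7, 34361633 to 34406318, minus strand), which encodes imidazolonepropionase, the third enzyme of histidine breakdown. Amdhd1 had 12.2, 13.9 and 18.4 FPKM in the model livers, against 87.8, 53.1 and 76.6 FPKM in the control livers. Every model value was under every control value, and the highest model liver was well below the lowest control liver. Its difference was -2.20 ± 0.31, with an adjusted p of 0.172.

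Tm7sf2, a sterol reductase of the late cholesterol pathway, stood at 3.8, 6.61 and 5.34 FPKM in the model livers and 19, 39 and 18.8 FPKM in the control livers. Zbtb16, a zinc-finger repressor that glucocorticoids induce in many cell types, had 0.306, 1.61 and 1.94 FPKM in the model and 9.83, 11.8 and 6.13 FPKM in the control livers. Tor3a, an interferon-inducible member of the torsin ATPases, had 0.606, 1.42 and 1.23 FPKM in the model and 9.95, 6.75 and 4.98 FPKM in the control livers. These genes were low in all 3 model livers, lowest in replicate 1, and their differences were -2.03 ± 0.33, -2.21 ± 0.38 and -1.96 ± 0.32, each with an adjusted p between 0.304 and 0.306. Tspan15, a tetraspanin that guides the protease ADAM10, had 0.832, 1.67 and 1.33 FPKM in the model and 3.94, 4.04 and 4.56 FPKM in the control livers, a difference of -1.20 ± 0.22. The remaining lower genes were the alpha-globin gene Hba-a3, the endothelial genes Stab2, Kdr, Ehd3 and Mmrn2, the macrophage mannose receptor Mrc1, and Islr, a secreted leucine-rich repeat protein of mesenchymal cells. Hba-a3, Stab2, Kdr, Ehd3 and Mrc1 are described with their cell types below. Mmrn2, an endothelial matrix protein in no marker list here, stood at 0.83, 1.14 and 0.976 FPKM in the model and 2.22, 2.35 and 2.77 FPKM in the control livers. Islr had 1.25, 2.18 and 1.71 FPKM in the model and 3.86, 4.05 and 6.18 FPKM in the control livers.

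Among the genes higher in the model livers, Mup4 had the smallest p. Mup4 (ENSRNOG00000033130, chromosome 5, 77404914 to 77408363, minus strand) belongs to the major urinary proteins, small pheromone-binding lipocalins secreted by rodent liver. It had 34.3, 13.4 and 12 FPKM in the model livers, against 1.99, 1.73 and 2.17 FPKM in the control livers. The 3 control livers lay close together, all model livers were far above them, and model replicate 1 was the highest. Its difference was 2.66 ± 0.49 with an adjusted p of 0.412, and 2.21 without model replicate 1. The Mup genes are near-identical copies, so reads could have been divided among them.

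Hsd17b2, which inactivates oestradiol and testosterone by oxidation, had 112, 215 and 300.4 FPKM in the model and 70.3, 70.1 and 45.2 FPKM in the control livers, a difference of 1.66 ± 0.43. Slc16a4, a member of the monocarboxylate transporter family, had 23.1, 16.1 and 17.1 FPKM in the model and 8.25, 11.1 and 5.46 FPKM in the control livers. The membrane protease Adam8 had 2.65, 2.48 and 1.93 FPKM in the model and 0.621, 1.19 and 1.06 FPKM in the control livers. In each of these, the lowest model liver was above the highest control liver.

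Anxa7, a calcium-dependent membrane-binding annexin, stood at 7.39, 6.51 and 5.93 FPKM in the model and 2.96, 2.72 and 3.56 FPKM in the control livers. Car14, a membrane carbonic anhydrase, had 71.1, 50.4 and 51.6 FPKM in the model and 24, 41.1 and 32.2 FPKM in the control livers. The galanin receptor Galr3, at 1.82, 1.16 and 2.57 FPKM in the model and 0.532, 0.828 and 0.383 FPKM in the control livers, was low in both groups. Jade1, a subunit of a histone acetyltransferase complex, had 5.7, 2.85 and 4.84 FPKM in the model and 2.29, 2.35 and 1.77 FPKM in the control livers. The other genes described on this side are Dbp, Per3, Nr1d2, Asns and Cyp7a1, given with their groups.

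**Figure D2:**
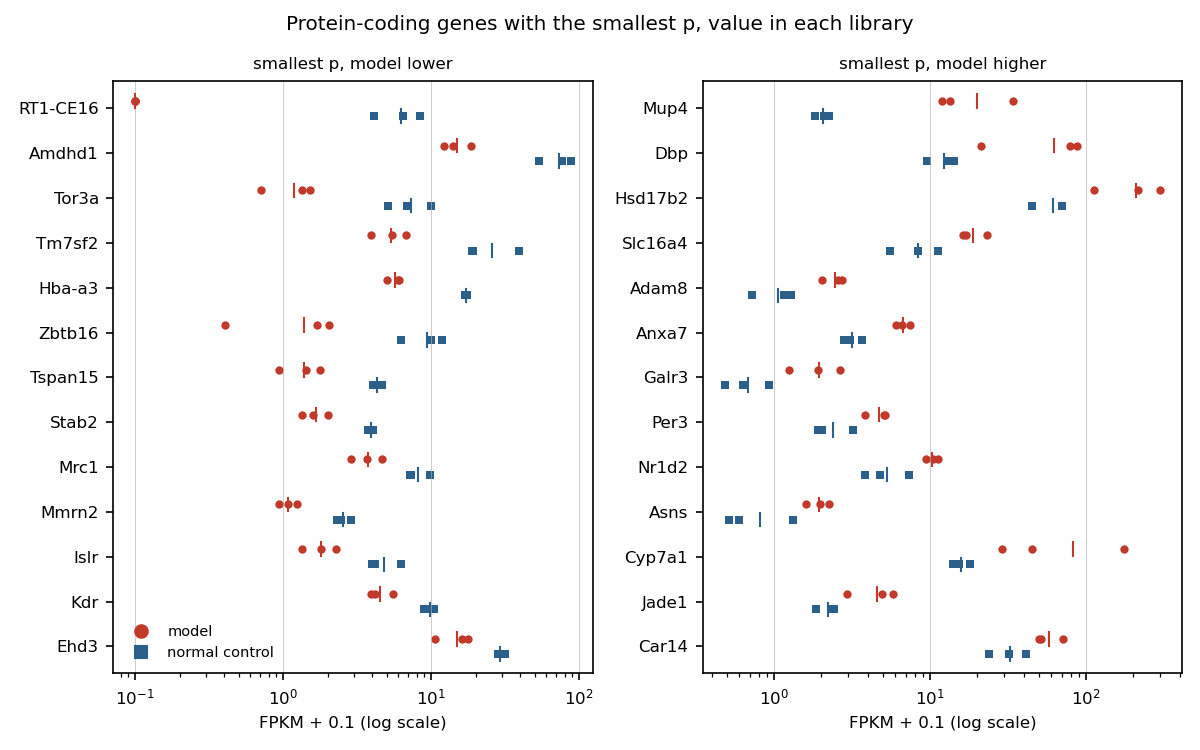
FPKM + 0.1 (log scale) of the protein-coding genes described in the text with the smallest p among those whose groups did not overlap, lower in the model livers on the left and higher on the right. Red circles are the 3 model libraries, blue squares the 3 normal control libraries and short lines their means; RT1-CE16 lies at 0 in all model libraries, and Mup4 at 12 to 34.3 FPKM in the model libraries.

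Markers of liver sinusoidal endothelial cells were the list with the largest number of members whose groups did not overlap (called separated from here on). Of 24 tested markers, 23 were lower in the model livers, 16 lay wholly under the control values and none wholly above them, where 4.82% of all genes lay wholly under. An unadjusted p under 0.05 was reached by 15, all lower, and the median difference was -0.74 beside -0.03 over all genes. The mean deviation of the 24 markers from the control mean was -0.85, -0.45 and -0.80 in the model libraries and -0.03, 0.02 and 0.00 in the control libraries. Their summed level was 128 to 213 FPKM in the model livers and 263 to 310 FPKM in the control livers. Without model replicate 1, 24 of 24 markers were lower, 17 were separated as lower, against 7.18% of all genes separated as lower, and the median was -0.62. In a bulk sample, fewer cells of a type and less RNA per cell cannot be told apart.

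Stab2, the scavenger receptor that clears hyaluronan in the sinusoids, had 1.5, 1.92 and 1.25 FPKM in the model livers against 3.93, 3.92 and 3.67 FPKM in the control livers. Kdr, the main signalling receptor of the growth factor VEGF-A, had 4.06, 5.46 and 3.82 FPKM in the model and 10.1, 10.3 and 8.83 FPKM in the control livers. Ehd3, a membrane-remodelling ATPase of sinusoidal endothelium, had 10.5, 17.7 and 16.1 FPKM in the model and 28.1, 31.4 and 28.2 FPKM in the control livers. In all of these the control values were tight and the model values clearly apart from them, with differences of -0.93 ± 0.20, -0.99 ± 0.24 and -0.97 ± 0.25.

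The receptor Gpr182 had 6.33, 10.6 and 6.16 FPKM in the model and 15.5, 17.6 and 20.6 FPKM in the control livers. Lyve1, a hyaluronan receptor, had 6.52, 7.2 and 4.43 FPKM in the model and 18.2, 13 and 9.98 FPKM in the control livers. Stab1, the paralog of Stab2, had 2.13, 5.9 and 3.15 FPKM in the model and 6.2, 9.43 and 10.7 FPKM in the control livers. These 3 were separated as well, with Stab1 in model replicate 2 close to the lowest control liver.

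Genes shared by endothelium in general stood on the same side. The junction cadherin Cdh5 had 2.58, 4.34 and 3.84 FPKM in the model and 5.87, 7.07 and 6.5 FPKM in the control livers, the angiopoietin receptor Tek 0.978, 1.65 and 1.03 FPKM in the model and 2.96, 2.32 and 2.01 FPKM in the control livers, and the transcription factor Sox18 1.03, 1.42 and 0.789 FPKM in the model and 2.92, 2.87 and 2.79 FPKM in the control livers. The receptors Flt1 and Flt4 and the secreted nuclease Dnase1l3 were also separated. The single marker with a difference above 0 was Rspo3, a Wnt enhancer made by central vein endothelium, at 2.05, 0.835 and 0.915 FPKM in the model and 1.23, 0.959 and 0.887 FPKM in the control livers, and its sign turned without model replicate 1. Gata4, the transcription factor that specifies sinusoidal endothelium, had 6.56, 5.19 and 7.28 FPKM in the model and 7.25, 7.05 and 6.02 FPKM in the control livers, which overlapped.

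Kupffer cell and macrophage markers were lower in 16 of 17 cases, with a median difference of -0.78, but the groups of 11 overlapped. The 6 that were separated, all lower, were Mrc1, Marco, Cd163, Csf1r, Adgre1 and Vsig4, or 35.3% of the list beside 4.82% of all genes. Marco, a scavenger receptor, had 3.77, 11.7 and 18.2 FPKM in the model and 18.3, 44.6 and 45.7 FPKM in the control livers. Cd163, the receptor that clears haptoglobin-bound haemoglobin, had 2.76, 7.33 and 5.49 FPKM in the model and 9.57, 9.00 and 11.3 FPKM in the control livers. Mrc1, which sinusoidal endothelium also expresses, had 2.79, 4.53 and 3.56 FPKM in the model and 9.72, 7.12 and 7.16 FPKM in the control livers, a difference of -0.96 ± 0.21. Clec4f, a C-type lectin found on rodent Kupffer cells, had 35.4, 79 and 68.5 FPKM in the model and 79.2, 76.3 and 168 FPKM in the control livers, which overlapped, and the lysozyme gene Lyz2, at 23.1, 41.1 and 20.5 FPKM in the model and 15.9, 16.6 and 33 FPKM in the control livers, was the single marker with a difference above 0. The mean deviation of the list was -1.42, -0.27 and -0.46 in the model libraries and -0.25, -0.10 and 0.35 in the control libraries, so the lowest value by far was that of model replicate 1. Without that library the median was -0.34, 15 of 17 were lower and 6 were separated as lower, beside 7.18% of all genes.

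Red blood cell transcripts, which mark blood in the tissue, were also lower. All 6 tested markers were below the control mean and 5 were separated as lower, or 83.3% beside 4.82% of all genes. Hba-a3 had 4.94, 5.84 and 6.01 FPKM in the model and 17.3, 17 and 16.7 FPKM in the control livers, a difference of -1.45 ± 0.25. The beta-globin gene Hbb had 46.1, 149.6 and 56.9 FPKM in the model and 174, 259.6 and 212 FPKM in the control livers. Alas2, the erythroid enzyme that starts haem synthesis, had 1.17, 1.08 and 0.57 FPKM in the model and 1.98, 2.92 and 1.65 FPKM in the control livers. The globin genes are close copies, and reads may have been divided among them. The summed level of the red cell markers was 476 to 1257 FPKM in the model livers and 1261 to 1898 FPKM in the control livers, so the 2 ranges nearly met. The part of residual blood in the lower endothelial and macrophage markers was not tested.

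Of 24 tested stellate cell and matrix markers 18 were lower, 6 were separated as lower and 1 as higher, beside 4.82% and 3.97% of all genes, and the median was -0.15. Without model replicate 1, 20 were lower and 9 were separated as lower, or 37.5% beside 7.18% of all genes, with a median of -0.22, and without control replicate 3 the median was -0.06. The matrix protein Sparc had 26, 32.7 and 19.5 FPKM in the model and 43.4, 40.8 and 47.3 FPKM in the control livers, and Lrat, the retinol-esterifying enzyme of quiescent stellate cells, had 1.31, 0.964 and 1.44 FPKM in the model and 2.51, 2.21 and 1.71 FPKM in the control livers. Acta2, the smooth muscle actin of activated stellate cells and vessel walls, lay on the other side, with 3.47, 9.31 and 4.76 FPKM in the model and 3.2, 2.77 and 2.44 FPKM in the control livers. Of 13 hepatocyte markers 4 were higher and 9 lower, none was separated, and the median was -0.09, or 0.07 without model replicate 1. Among 10 tested lymphocyte and leukocyte markers, 4 were higher and 6 lower, and 1 was separated as lower, or 10% beside 4.82% of all genes. It was Cd4, at 5.31, 9.29 and 9.05 FPKM in the model and 10.9, 13 and 15.3 FPKM in the control livers. Rat macrophages carry CD4 as well as T cells do. Klrb1 was at 0 in all 6 libraries and 10 of the 20 leukocyte markers in the table did not reach the expression threshold. For neutrophils 2 of 9 markers were tested and for cholangiocytes 4 of 10, too few to describe those cells.

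**Figure D3:**
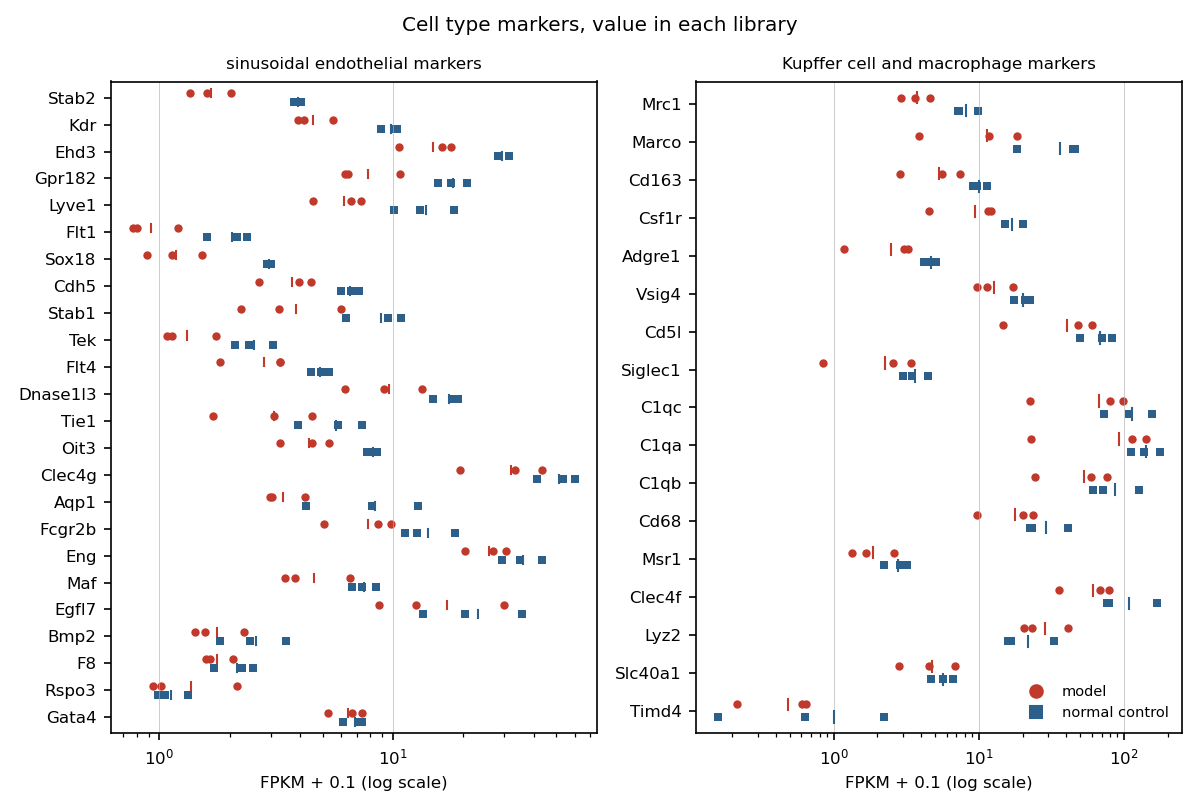
FPKM + 0.1 (log scale) of the tested sinusoidal endothelial markers (left) and Kupffer cell and macrophage markers (right) in each library, ordered by p. Red circles are model libraries, blue squares normal control libraries and short lines group means; on the left 16 of 24 genes have every model value under every control value, on the right 6 of 17.

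Genes of cholesterol synthesis were mostly lower in the model livers. Of 20 tested, 18 were lower and 2 higher, 4 were separated, all lower, or 20% beside 4.82% of all genes, and the median difference was -0.60. Leaving out model replicate 1 gave 16 lower and 8 separated as lower, beside 7.18% of all genes. Besides Tm7sf2, Pmvk, a kinase of the mevalonate pathway, was separated, at 8.84, 15.4 and 13.4 FPKM in the model and 15.5, 28.3 and 26.5 FPKM in the control livers. The sterol isomerase Ebp had 47.7, 69.6 and 59.3 FPKM in the model and 75.1, 104 and 101 FPKM in the control livers. Fdps, which makes farnesyl diphosphate, had 13.9, 19.5 and 21.9 FPKM in the model and 22.9, 54.2 and 24.4 FPKM in the control livers. Control replicate 2 was the highest of the 3 control livers for Tm7sf2, Pmvk, Ebp and Fdps.

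That library stood high over the whole list. The mean deviation was -0.67, -0.44 and -0.55 in the model libraries, against -0.32, 0.64 and -0.32 in the control libraries, and leaving out 1 library at a time moved the median between -0.79, without control replicate 1, and -0.25, without control replicate 2. Sqle, the squalene epoxidase, had 1.93, 1.26 and 0.666 FPKM in the model and 2.45, 8.1 and 1.86 FPKM in the control livers, and its high value was again that of control replicate 2. The 2 genes with a difference above 0 included Nsdhl, a sterol dehydrogenase, at 91.5, 58.9 and 56.3 FPKM in the model and 52.2, 59.7 and 35.6 FPKM in the control livers.

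Sterol uptake and export showed no common direction, with 8 of 19 tested genes higher and 11 lower and a median of -0.10, which ran from -0.32 without model replicate 3 to 0.08 without model replicate 1. Abca1, which loads cholesterol onto high-density lipoprotein, was separated as higher, with 11.8, 7.51 and 7.99 FPKM in the model and 5.76, 5.45 and 4.92 FPKM in the control livers and a difference of 0.64 ± 0.26. Among 22 genes of apolipoproteins and lipoprotein handling, 8 were higher and 14 lower, or 13 higher and 9 lower without model replicate 1. Apobec1, which edits the apolipoprotein B transcript, was separated as lower, at 1.84, 1.97 and 2.21 FPKM in the model and 2.67, 2.93 and 2.84 FPKM in the control livers.

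The largest difference among bile acid genes was that of Cyp7a1 (ENSRNOG00000009488, chromosome 5, 19358734 to 19368431, minus strand). It had 175, 28.9 and 45.1 FPKM in the model livers, against 14, 15.3 and 17.9 FPKM in the control livers. All model livers were above all control livers, but model replicate 1 was several times higher than the other two. The difference was 1.90 ± 0.58 with an unadjusted p of 0.00816, and 1.16 without model replicate 1. Of the 15 tested genes of bile acid synthesis and its control by the receptor FXR, 10 were higher and 5 lower. Cyp7a1 was the only one separated, or 6.67% beside 3.97% of all genes separated as higher. Of 11 transporters 1 was separated, as higher, or 9.09% beside 3.97% of all genes. It was Slco1b2, a rodent uptake carrier for bile acids and organic anions, at 174, 73.4 and 71.7 FPKM in the model and 64.6, 65 and 28.6 FPKM in the control livers. Abcb11, the bile salt export pump, had 36.2, 47.3 and 65.5 FPKM in the model and 63.5, 78.2 and 67 FPKM in the control livers, with 1 model liver inside the control range.

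Fatty acid synthesis was mixed, with 9 of 17 tested genes higher, 8 lower and a median of 0.01, which was 0.19 without control replicate 2 and -0.31 without control replicate 3. Srebf1, the transcription factor that drives lipogenesis, had 77, 46.1 and 132 FPKM in the model and 25.3, 49.3 and 19.3 FPKM in the control livers, a difference of 1.39 ± 0.44, and the groups overlapped through control replicate 2. In that list 3 genes were separated, all lower, or 17.6% beside 4.82% of all genes. Among them were Acot4 and Acot3, acyl-CoA thioesterases that the list holds beside the enzymes of synthesis. Acot4 had 8.07, 16.5 and 9.15 FPKM in the model and 26.6, 20.1 and 25.8 FPKM in the control livers.

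Fatty acid oxidation and targets of PPAR-alpha, the fasting-activated lipid receptor, were lower for 26 of 29 genes, with a median of -0.36 and 7 separated, all lower, or 24.1% beside 4.82% of all genes. The omega-hydroxylase Cyp4a2, which has 2 rows in the table, had in the row with the smaller p 373, 549.5 and 405 FPKM in the model and 1054, 895 and 724 FPKM in the control livers. Cpt2, the inner membrane carnitine acyltransferase, had 45.7, 54.6 and 51.2 FPKM in the model and 75.1, 67.1 and 83.3 FPKM in the control livers, and the peroxisomal enzyme Ehhadh had 138, 144 and 126 FPKM in the model and 192, 250.1 and 165 FPKM in the control livers. Model replicate 1 was again lowest in the list, with a mean deviation of -0.78 against -0.06 and -0.30 in the other model libraries, and -0.06, 0.16 and -0.10 in the control libraries. Without it the median was -0.13, with 21 of 29 lower and 7 separated as lower, where 7.18% of all genes were.

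Of 19 genes of triglyceride storage 14 were lower and 2 were separated, both lower, or 10.5% beside 4.82% of all genes. Among the separated genes was Plin5, a lipid droplet coat protein of oxidative tissues. It had 1.59, 4.51 and 3.09 FPKM in the model and 4.53, 5.00 and 6.92 FPKM in the control livers. The list median of -0.26 became -0.05 without model replicate 1.

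Genes of the daily clock lay on opposite sides by their phase. Of 11 tested genes that peak with or near Dbp, 10 were higher in the model livers, 3 were separated and 4 had an unadjusted p under 0.05, all higher, with a median of 0.44. Over all genes 3.97% were separated as higher and 1.2% were higher with such a p. Leaving out control replicate 1 gave a median of 0.26, and leaving out model replicate 1 gave 5 genes separated as higher, beside 10.9% of all genes. Dbp, an output transcription factor of the clock, had 21.3, 87.6 and 79.6 FPKM in the model and 12.9, 9.51 and 14.2 FPKM in the control livers, a difference of 2.05 ± 0.49. Nr1d2, a repressor in the second loop of the clock, had 10.3, 11.2 and 9.32 FPKM in the model and 7.3, 4.66 and 3.72 FPKM in the control livers. Per3, a period gene, had 4.96, 5.09 and 3.72 FPKM in the model and 3.12, 1.95 and 1.82 FPKM in the control livers. All 3 were separated, and Dbp was much lower in model replicate 1 than in replicates 2 and 3. Nr1d1, the paralog of Nr1d2, had 4.82, 21.3 and 60.4 FPKM in the model and 4.34, 10.2 and 2.45 FPKM in the control livers, which overlapped.

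Of 4 tested genes that peak with Arntl, 3 were lower and 2 separated as lower, or 50% beside 4.82% of all genes. Arntl itself, an activator at the head of the clock loop, had 3.15, 1.64 and 3.02 FPKM in the model and 5.76, 8.02 and 8.26 FPKM in the control livers, a difference of -1.23 ± 0.32. Nfil3, the repressor that opposes Dbp, had 34.5, 50.8 and 49.2 FPKM in the model and 62.7, 58.5 and 128 FPKM in the control livers. Without model replicate 1 all 11 of the Dbp group were higher and all 4 of the Arntl group lower. The labels give no time of day of sampling for any library, and its part in these values was not tested.

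Enzymes of histidine breakdown were lower in all 4 cases, with a median of -0.81, or -0.53 without model replicate 1. Of these, 2 were separated as lower, or 50% beside 4.82% of all genes. Besides Amdhd1, the first enzyme Hal was separated, at 67, 76.3 and 122 FPKM in the model and 191, 144 and 194 FPKM in the control livers, a difference of -1.02 ± 0.33. Ftcd, the last enzyme, had 143, 291 and 341 FPKM in the model and 292, 335 and 503 FPKM in the control livers, and Uroc1, the second, 158, 174 and 209 FPKM in the model and 199, 203 and 228 FPKM in the control livers, both with overlap.

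Other amino acid breakdown enzymes were lower for 21 of 29 genes with a median of -0.22, or -0.08 without control replicate 3, and 3 were separated, all lower, or 10.3% beside 4.82% of all genes. Agxt, the peroxisomal alanine-glyoxylate aminotransferase, had 27.9, 67.1 and 54.9 FPKM in the model and 76, 78.5 and 176 FPKM in the control livers, and Cbs, which commits homocysteine to cysteine synthesis, had 147, 192 and 161 FPKM in the model and 244, 213 and 306 FPKM in the control livers. None of the 8 urea cycle genes was separated, although 7 were lower. Genes typical of periportal hepatocytes were lower for 13 of 17, with a median of -0.24, or -0.36 without control replicate 2. That list holds Hal, Uroc1 and Ftcd but not Amdhd1, and it shares members with the urea cycle list. Genes typical of pericentral hepatocytes were higher for 11 of 14, with a median of 0.20, which was 0.02 without control replicate 1 and 0.40 without control replicate 2. In that list 1 gene was separated, as higher, or 7.14% beside 3.97% of all genes. It was Rgn, a calcium-binding lactonase, at 367, 331 and 242 FPKM in the model and 177, 187 and 195 FPKM in the control livers. Pck1, the gluconeogenic enzyme of periportal cells, was separated as lower, at 1282, 1846 and 2059.8 FPKM in the model and 2277, 2319.9 and 3452 FPKM in the control livers. Gys2, the liver glycogen synthase, was separated as higher, at 34.3, 29.98 and 30.9 FPKM in the model and 21.5, 20.7 and 20.3 FPKM in the control livers.

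Asns, the asparagine synthetase induced by amino acid shortage, had 1.51, 2.14 and 1.87 FPKM in the model and 0.417, 1.22 and 0.50 FPKM in the control livers, which did not overlap. Of 17 tested genes of that response, Asns included, 9 were higher and 8 lower. In each direction 1 was separated, or 5.88%, beside 3.97% of all genes separated as higher and 4.82% as lower. With model replicate 1 left out, 15 were higher and 6 were separated as higher, or 35.3% beside 10.9% of all genes. Ddit4, a stress-induced inhibitor of the growth kinase mTORC1, was separated as lower, at 1.4, 2.74 and 3.00 FPKM in the model and 5.47, 3.74 and 9.09 FPKM in the control livers. The median of that list was 0.11, with 0.56 without model replicate 1 and -0.10 without control replicate 1. Heat shock chaperones were lower for 17 of 19 genes with a median of -0.34, which was -0.17 without model replicate 1 and -0.53 without control replicate 1. Hsph1, a co-chaperone of HSP70, had 17.2, 20.5 and 21.7 FPKM in the model and 30.3, 39.6 and 47.7 FPKM in the control livers, with no overlap. Endoplasmic reticulum chaperones and unfolded protein sensors were higher for 15 of 20, with none separated and a median of 0.17, or 0.01 without model replicate 2. With model replicate 1 left out, 19 of 20 were higher, where 6350 of all 11078 genes were. In that setting 2 of the 20 were separated as higher, or 10% beside 10.9% of all genes.

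Genes known to be higher in male than in female rat liver were higher in the model livers for 8 of 9 tested, with a median of 0.73, and 4 were separated as higher, or 44.4% beside 3.97% of all genes. Besides Mup4 and Hsd17b2, Cyp2c11, the main male-specific P450 of rat liver, was separated, at 951, 595 and 560.2 FPKM in the model and 488, 380.2 and 374 FPKM in the control livers. Mup5 was separated too, at 309.6, 370.4 and 309.7 FPKM in the model and 245, 201 and 126 FPKM in the control livers. The other 5 overlapped between the groups. Among 4 tested genes known to be higher in females 3 were lower, and Hao2, a hydroxyacid oxidase, was separated as higher, at 156, 157 and 181 FPKM in the model and 145, 99 and 65.6 FPKM in the control livers. Without model replicate 1 the median of the male-higher list was 0.49, with 4 of 9 separated as higher against 10.9% of all genes separated as higher, and without control replicate 3 it was 0.39.

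Of 27 drug-metabolising genes of P450 families 1 to 3, 16 were higher, 4 separated as higher and 1 as lower, where 3.97% of all genes were separated as higher and 4.82% as lower. The median was 0.05, which was 0.23 without model replicate 2 and -0.01 without model replicate 3. Cyp2c22 had 1098, 679 and 1036 FPKM in the model and 599, 539 and 612 FPKM in the control livers. Of 26 conjugation enzymes 19 were higher, with a median of 0.22 that ranged from 0.18 to 0.30 with each library left out. In that list 3 (11.5%) were separated as higher and 2 (7.69%) as lower, beside 3.97% and 4.82% of all genes. Those separated as higher included the glutathione transferase Gstm7, at 762, 749.8 and 746 FPKM in the model and 584, 617 and 486 FPKM in the control livers, while Ugt2a1, a glucuronosyltransferase, was separated as lower at 3.28, 7.56 and 5.94 FPKM in the model and 18.7, 7.67 and 12.1 FPKM in the control livers. Of 20 tested antioxidant genes 10 were higher and 10 lower, with a median of -0.02, or 0.12 without model replicate 1. In that list 2 (10%) were separated as higher, beside 3.97% of all genes. Among these was Gclc, the catalytic subunit of the enzyme that starts glutathione synthesis, at 71.4, 47.6 and 53.7 FPKM in the model and 30.1, 39.5 and 30.3 FPKM in the control livers.

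Of 22 tested genes of chemokines, inflammatory signals and adhesion, 17 were higher and 3 were separated as higher, or 13.6% beside 3.97% of all genes. None had an unadjusted p under 0.05, and the median was 0.18, or 0.08 without model replicate 3. In the other 5 libraries, without model replicate 1, 6 were separated as higher, or 27.3% beside 10.9% of all genes. Cxcl9, a chemokine for T cells, had 15.3, 24.1 and 16.4 FPKM in the model and 9.08, 6.02 and 11.3 FPKM in the control livers. Icam1, an adhesion molecule for leukocytes, had 18.9, 23.9 and 18.2 FPKM in the model and 13.2, 13 and 12.6 FPKM in the control livers. Lcn2, an iron-trapping acute phase protein, was separated with a wide spread, at 10.03, 35 and 9.62 FPKM in the model and 1.67, 0.88 and 1.88 FPKM in the control livers, a difference of 2.73 ± 1.03. Of 21 acute phase genes as a whole 7 were higher and 14 lower. Of 33 interferon-stimulated genes 25 were lower and 8 higher, with Tor3a the furthest from 0. In the interferon list 2 (6.06%) were separated as lower and 1 (3.03%) as higher, beside 4.82% and 3.97% of all genes. Its median was -0.20, or -0.13 without model replicate 1. Its mean deviation was -0.68, -0.25 and 0.14 in the model libraries and 0.04, -0.16 and 0.12 in the control libraries.

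**Figure D4:**
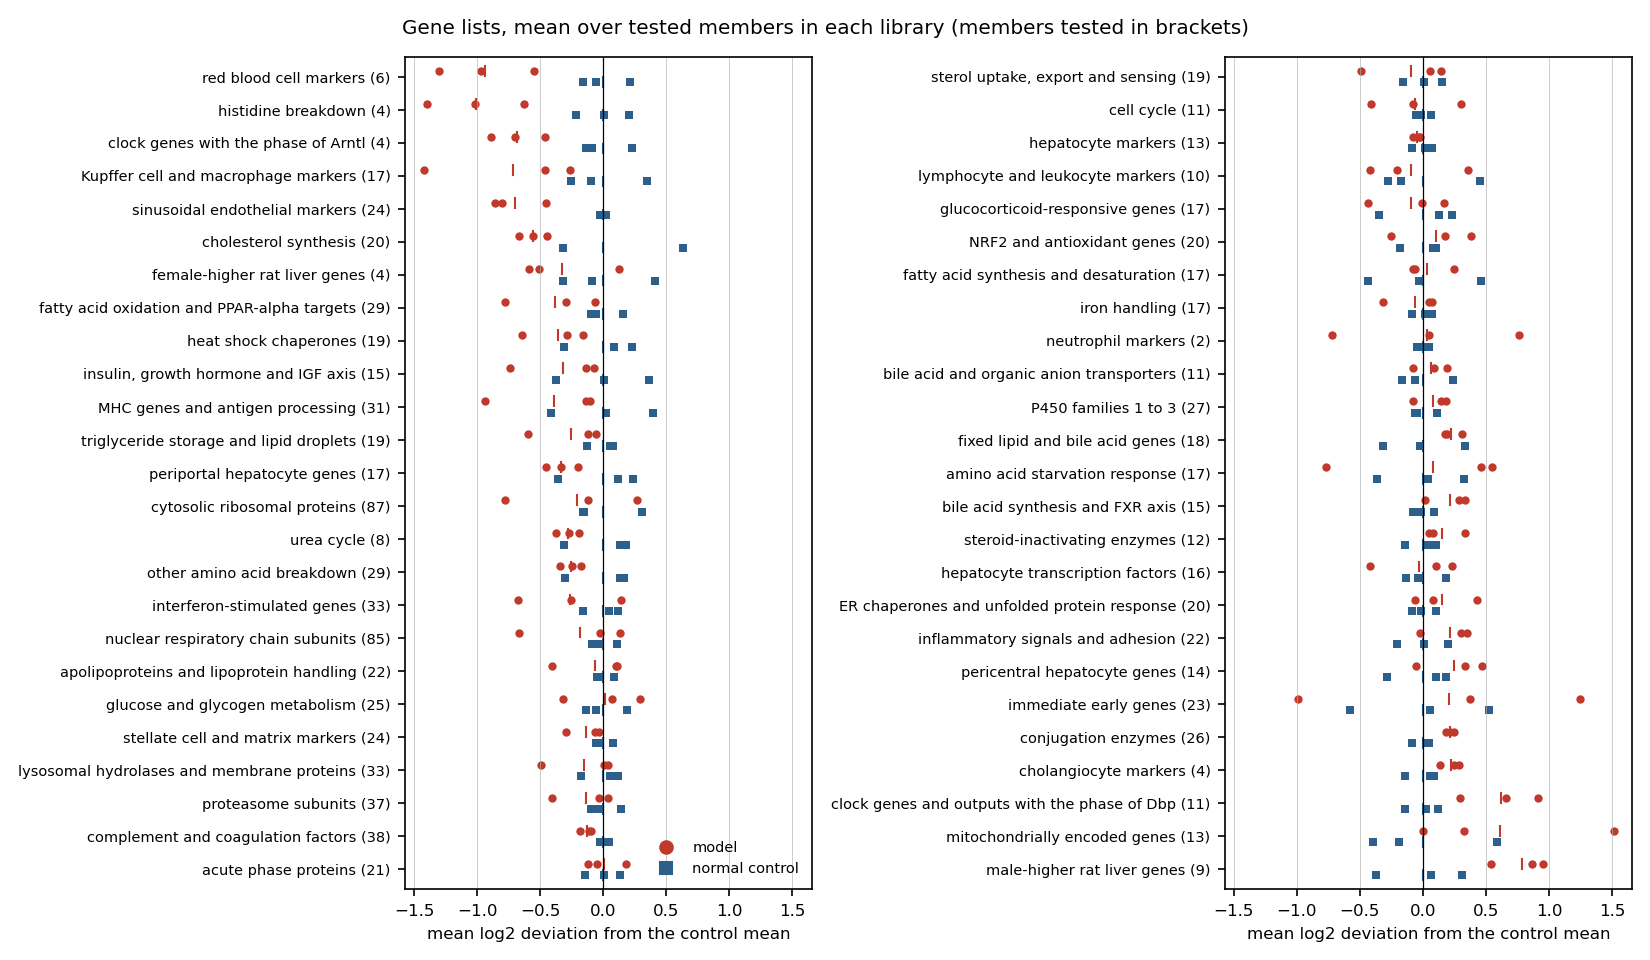
Mean deviation from the control mean (x axis, log2(FPKM + 1)) over the tested members of each of 50 gene lists, 1 point per library, with the number of members in brackets. Red circles are model libraries, blue squares normal control libraries and short lines group means; the 3 model libraries lie between -0.85 and -0.45 for sinusoidal endothelial markers, with the control libraries at 0, while cytosolic ribosomal proteins range from -0.78 to 0.27 within the model libraries.

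Several of these lists were low chiefly in model replicate 1, and so were genes that every cell uses. Cytosolic ribosomal protein genes were lower for 71 of 87, with none separated, and their mean deviation was -0.78, 0.27 and -0.12 in the model libraries and -0.16, -0.15 and 0.31 in the control libraries. The 85 nuclear genes of the respiratory chain had mean deviations of -0.66, 0.13 and -0.02 in the model and -0.09, -0.03 and 0.11 in the control libraries. The 13 protein-coding genes of the mitochondrial genome went the other way, with mean deviations of 1.51, 0.32 and 0.00 in the model and 0.59, -0.19 and -0.40 in the control libraries. Immediate early genes, which respond within minutes to handling and tissue injury, varied as widely inside the groups, at -0.99, 0.37 and 1.25 in the model and 0.05, -0.58 and 0.52 in the control libraries. Each of these lists spread further among the 3 model libraries than the 2 group means lay apart.

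The deviation of model replicate 1 followed gene length. In the shortest of 4 equal classes of tested genes by length, those of 42 to 1363 bases, the median deviation from the control mean was -0.37 in model replicate 1, 0.16 in replicate 2 and -0.03 in replicate 3, and -0.05, -0.02 and 0.06 in the control libraries. In the longest class, of 3347 to 29464 bases, it was -0.03, 0.03 and 0.01 in the model libraries and 0.03, 0.00 and -0.04 in the control libraries. Library quality or RNA breakdown in model replicate 1 as a source of these values was not tested. RT1-CE16 and Amdhd1 kept their direction without that library. So did the medians of several lists, among them endothelial, red cell, clock, male-higher, Kupffer and stellate genes. The medians for cholesterol synthesis, fatty acid oxidation and histidine breakdown did too. Those of cytosolic ribosomal protein and nuclear respiratory chain genes turned, from -0.23 to 0.06 and from -0.18 to 0.04.

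**Figure D5:**
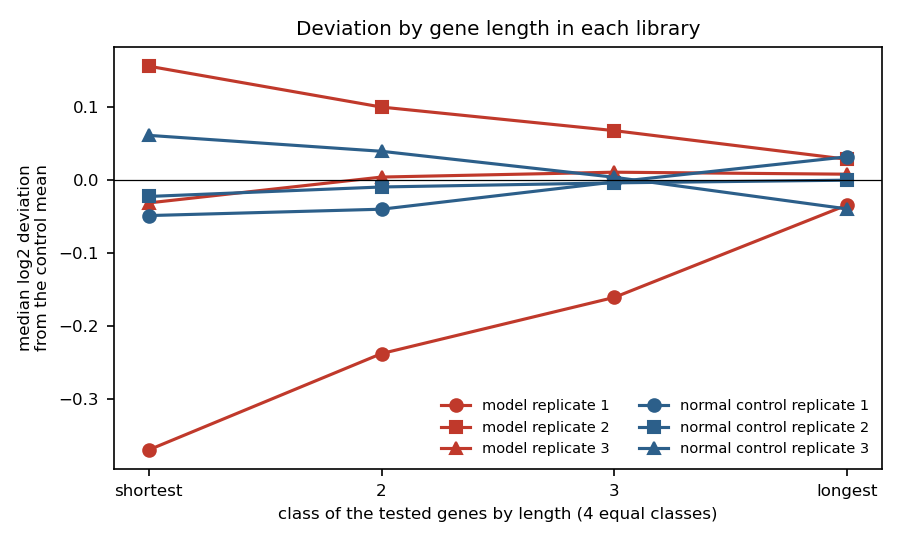
Median deviation from the control mean (y axis, log2(FPKM + 1)) in each of 4 equal classes of the 11078 tested genes by transcript length (x axis), 1 line per library, model libraries in red and normal control libraries in blue. Model replicate 1 runs from -0.37 in the shortest class to -0.03 in the longest, and the other 5 libraries stay within 0.16 of 0.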

How the data were processed

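Per the labels' protocols, total RNA of rat liver was selected for poly(A) tails with oligo(dT), broken into fragments and copied into cDNA from random primers. The submitters' processing notes name Bowtie2 2.2.3, HISAT2, TopHat2, HTSeq 0.6.0, DESeq and DESeq2 and the build Rnor_6.0, with no role or order. The sources used here do not say whether counting used strand. The authors deposited 1 table of FPKM values per gene and library. Because FPKM values are not counts, limma 3.58.1 (R 4.3.3) with an intensity-trended prior was fitted to log2(FPKM + 1) of all 9 libraries in 3 groups, with a two-sided contrast of model minus normal control and Benjamini-Hochberg adjustment over 11078 genes at 0.05. A rank or permutation test of 3 against 3 libraries cannot go below p = 0.1.

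The low FPKM values of each library are whole multiples of 1 read, and 100.0% of 146433 values came out whole within 0.001 reads. The recovered reads gave the depths, the share of mitochondrial reads and an alternative count fit. Values after ± are standard errors from the limma fit and reflect the spread among libraries. The floors of 3 reads cover counting error only, since reads carry no molecular identifiers. Groups were taken from the group field of the labels, which do not explain the letters in the sample titles, and replicates were numbered in accession order.

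Named genes were the gene past the threshold, the 15 with the smallest p per direction among those with a gene symbol and no overlap between groups, up to 4 per list, a set of lipid and bile acid genes, genes at 0 in 1 group, and the 10 most abundant. Some genes that meet the rule are not reported here. Of 91 symbols described, 23 lie outside that rule and were chosen after their values were seen. The members and the 50 gene lists were chosen with earlier results of these data known. Of 885 list symbols and patterns 817 matched by symbol, 12 through RefSeq names (GRCr8), 12 by pattern and 44 not at all. Lists are described by counts and medians beside those of all genes, with no set test. The fit was tested on simulated data. The 20 alternatives covered the pseudocount, filters, scaling, samples in the fit, trend, weights, recovered reads, the mitochondrial share and each library left out.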

Additional observations from a re-analysis of the deposited data

How the results depend on the processing

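The count of genes past the adjusted threshold, 1 in the analysis as reported, was 0 with a pseudocount of 0.1, with no filter on low values, with a mean FPKM of at least 5, with limma voom on recovered reads and with the mitochondrial read share as a covariate, 10 with library quality weights and 2 without the 3 libraries with the highest mitochondrial share. It ranged from 0 to 1 with each library left out, and 330 genes had an unadjusted p under 0.05. The 10 genes under library quality weights were RT1-CE16, Amdhd1, Tm7sf2, Tor3a, Zbtb16, Tspan15 and Hba-a3, all lower, and Mup4, Dbp and Hsd17b2, all higher. The 2 genes without the 3 high-mitochondrial libraries were Dbp and Mup4. The cause of these changes was not tested. The count at an unadjusted p under 0.05 was 666 with no filter, 166 with a mean FPKM of at least 5, 864 with library quality weights and 554 without the 3 high-mitochondrial libraries, and 189 to 444 with each library left out. A stricter filter tests fewer genes and no filter tests more, by construction.

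Of the medians of the 50 lists, 25 kept their sign under all 20 alternatives, among them those for endothelial, Kupffer and red cell markers, cholesterol synthesis, fatty acid oxidation, both clock groups, histidine breakdown and male-higher genes. The endothelial median ranged from -0.96 to -0.62 and the Kupffer median from -1.01 to -0.34. Directions turned for Gata4 and Rspo3. With each library left out the difference of Gata4 ranged from -0.18 to 0.029 and that of Rspo3 from -0.11 to 0.26. Rspo3 stood at -0.034 with library quality weights, -0.023 once the mitochondrial share entered as a covariate, and -0.11 without the 3 high-mitochondrial libraries. No paired analysis was possible because the replicate numbers only follow accession order. Depth limits values near the floor of 3 reads, such as those of RT1-CE16 in the model livers.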
